A study of Mus musculus with 7 samples.

Results

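The transcripts described here are those of 9 genes of 1 protease system, the matrix metalloproteinases (MMPs) Mmp8, Mmp9, Mmp12, Mmp13, Mmp14 and Mmp19 and their tissue inhibitors Timp1, Timp2 and Timp3. They are 9 of 26143 gene symbols measured in alveolar macrophages, and 8 of them were among the 12759 genes with enough reads to be tested. Mmp9 was not. The genes were matched by symbol, and they had been picked with the difference between Cish-/- and WT in these same libraries known. Their values in that comparison, and the calls counted for them below, are therefore given as a description and not as evidence. Alveolar macrophages are the resident phagocytes of the airspaces. They were sorted from C57BL/6 mice aged 4 months, either WT or Cish KO (Cish-/-, called KO from here on), with 4 WT and 3 KO libraries and no treatment in the labels. The labels state neither the sex of the mice, nor a batch, nor whether the libraries stem from different mice, and all errors and p-values below therefore measure the spread between libraries. Cish encodes a protein of the suppressor of cytokine signalling family that is induced by cytokines through STAT5 and restrains their receptors.

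MMPs are zinc-dependent enzymes that cut proteins of the extracellular matrix and many secreted or membrane-bound proteins. Most are secreted as inactive proenzymes, whose propeptide has to be removed or displaced before they cut, and the TIMP proteins block the active site of the finished enzyme. In the lung, macrophages are a known source of the elastin-cleaving enzyme of Mmp12, long called macrophage elastase. Messenger RNA levels do not show how much of an enzyme is active.

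Total counts per library lay between 26780291 and 34483612, and levels are given as CPM (counts scaled to a common library total). As a check of the labels, Cish stood at 29.6 to 67.9 CPM in the WT libraries and 10.9 to 14.3 CPM in the KO libraries, without overlap but with reads in every KO library (log2 fold change -1.84, SE 0.26, edgeR adjusted p 0.0519, range over the alternatives 2.70e-11 to 0.225). Of the 10 alveolar macrophage markers examined, all were among the tested genes, and their summed level was 20749 to 56354 CPM in WT and 45662 to 79177 CPM in KO. Most of that sum was Chil3, at 16623 to 50491 CPM in WT and 40503 to 72178 CPM in KO. Siglecf and Ear1 were lower in every KO library than in WT, at 372 to 455 CPM against 521 to 587 CPM and at 500 to 691 CPM against 738 to 811 CPM. Mrc1 went the other way, at 595 to 654 CPM in KO against 478 to 549 CPM in WT. All other markers of this list overlapped between the groups. Neutrophil markers, which matter here because neutrophil granules hold the enzymes of Mmp8 and Mmp9, summed to 35.9 to 60.0 CPM in WT and 30.0 to 49.9 CPM in KO over 12 genes. The largest part of that sum was Csf3r in every library but KO 1, where it was S100a8 (30.7 against 14.6 CPM). The defining gene Ly6g had 0 reads in all 7 libraries. On the first principal component of all tested genes, WT 4 lay at 7.27, away from WT 1 to WT 3 (-39.4 to -24.1) and nearer to the KO libraries (18.3 to 43.9). Among all tested genes, WT 4 was the highest WT library for 29.1%, and it was so for 6 of the 8 tested members. In the deposited table WT 4 and KO 3 are the last columns, placed after the other libraries of both groups, and both were high for Mmp12 and Mmp14. High Mmp12 was not limited to them, since KO 1 had 512 CPM against 470 CPM in WT 4. The labels name no batch, and whether WT 4 and KO 3 were handled apart from the rest was not tested. Results are given with and without WT 4 and KO 3 where these libraries change a value.

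Mmp8, Mmp12 and Mmp13 lie together on chromosome 9 (mm10), in a cluster of 10 MMP genes between 7272514 and 7699585, 99.6 Mb from Cish on the same chromosome. Along the chromosome the order is Mmp13, Mmp12, Mmp1b, Mmp3, Mmp1a, Mmp10, Mmp8, Mmp27, Mmp20 and Mmp7. The cluster was read very unevenly. Mmp12 and Mmp8 had between 466 and 28965 reads in every library, Mmp13, Mmp10 and Mmp3 between 0 and 40, and Mmp1b, Mmp27 and Mmp20 at most 8. Mmp1a and Mmp7 had 0 reads in all 7 libraries, which allows up to 0.0839 to 0.117 CPM per library (the limit of 3 counts, for counting error only). Only Mmp13, Mmp12, Mmp10 and Mmp8 passed the filter on low counts.

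**Figure D1:**
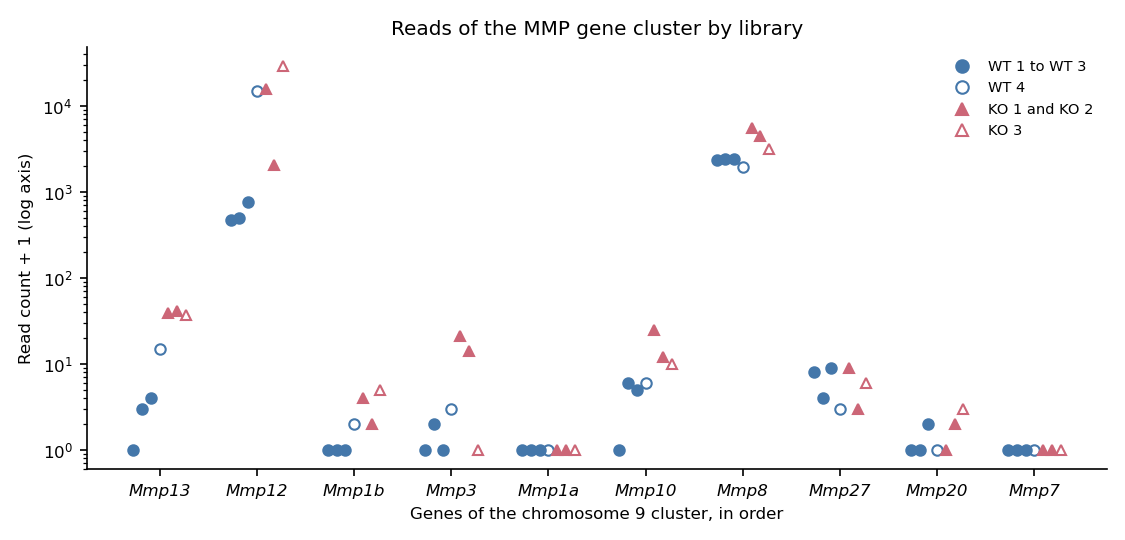
Read counts plus 1 (log axis) of the 10 MMP genes of the chromosome 9 cluster, in chromosomal order, with 1 point per library (circles WT, triangles KO, open symbols WT 4 and KO 3). Mmp12 and Mmp8 stand far above their neighbours, the KO libraries lie above all WT libraries for Mmp13, Mmp10 and Mmp8, and the WT 4 point of Mmp12 lies among those of KO.

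The sequences before the starts of the 4 tested genes of the cluster are shown because the genes lie side by side and yet were read at very different levels. Each line gives the 250 bases before the transcription start, 5′ to 3′ on the + strand, from RefSeq (GRCm38.p6, the assembly also called mm10). Capitals mark matches to TGANTCA, the letters bound by AP-1, the Jun and Fos family of transcription factors that acts on many MMP genes. The windows are chr9:7272264-7272513 for Mmp13, chr9:7347124-7347373 for the downstream start of Mmp12, chr9:7502092-7502341 for Mmp10 and chr9:7558179-7558428 for Mmp8.
Mmp13: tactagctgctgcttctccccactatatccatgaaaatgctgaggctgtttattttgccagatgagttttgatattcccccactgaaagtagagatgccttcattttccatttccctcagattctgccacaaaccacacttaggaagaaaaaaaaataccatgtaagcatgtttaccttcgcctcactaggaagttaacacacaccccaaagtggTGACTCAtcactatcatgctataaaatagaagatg
Mmp12: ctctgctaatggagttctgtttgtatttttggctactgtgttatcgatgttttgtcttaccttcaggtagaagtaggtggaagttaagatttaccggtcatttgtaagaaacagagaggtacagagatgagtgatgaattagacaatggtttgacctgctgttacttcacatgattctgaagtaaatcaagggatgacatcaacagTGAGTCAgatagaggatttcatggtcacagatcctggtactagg
Mmp10: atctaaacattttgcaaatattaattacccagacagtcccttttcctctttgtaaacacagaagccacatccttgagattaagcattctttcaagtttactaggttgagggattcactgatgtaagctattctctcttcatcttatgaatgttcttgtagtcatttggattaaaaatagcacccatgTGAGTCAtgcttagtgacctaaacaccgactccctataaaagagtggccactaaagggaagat
Mmp8: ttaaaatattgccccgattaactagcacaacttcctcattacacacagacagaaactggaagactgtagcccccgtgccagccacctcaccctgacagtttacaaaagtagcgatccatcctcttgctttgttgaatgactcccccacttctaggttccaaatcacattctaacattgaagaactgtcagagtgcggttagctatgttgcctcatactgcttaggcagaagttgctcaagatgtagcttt

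The AP-1 letters lay at bases -35 to -29 before the start of Mmp13, at -44 to -38 for Mmp12 and at -63 to -57 for Mmp10, counted back from the start, and the window of Mmp8 had no match. Over the whole cluster, 8 of the 10 genes had a match in such a window, the exceptions being Mmp8 and Mmp27. A gene with more than 1 window was counted if any of them matched. Among the 12 other MMP and TIMP genes with a window there were 0. Counted by window and not by gene, 6.75% of all 32851 windows of the same length had a match, and 4.52% of the windows of tested genes. The upstream RefSeq start of Mmp12, with its window at chr9:7344147-7344396, had no match either. The letters read the same on both strands. TTCNNNGAA, the letters bound by STAT factors, which also read the same on both strands, were found in 0 of the 10 genes of the cluster and in 7.02% of all windows. Windows were listed for 7 of the 9 members. Mmp8, without a match, had 1957 to 5573 reads per library, and Mmp1a and Mmp7, with a match, were at 0. Whether these letters have a part in the levels of the genes was not tested.

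Among the collagenases, which cut fibrillar collagen, Mmp8 is best known from neutrophils and Mmp13 is a main interstitial collagenase of rodents. Mmp8 (chromosome 9, 7558456 to 7568485) stood at 65.5, 74.9, 76.5 and 61.2 CPM in WT 1 to WT 4 and at 184, 174 and 115 CPM in KO 1 to KO 3. The groups did not overlap, WT 4 was the lowest of all libraries, and KO 3 was the lowest of KO. The means were 69.5 CPM ± 7.37 (SD, n = 4) and 158 CPM ± 37.4 (SD, n = 3), a log2 fold change of 1.18 (SE 0.16). Of the members with at least 10 CPM it was the steadiest in WT, with a highest library 1.25 times the lowest against a median of 1.24 over 8121 genes of that level, and the ratio within KO was 1.60 against a median of 1.19. The summed neutrophil markers were highest in WT 1 and WT 2. Csf3r, a receptor gene and the largest part of the sum in every library but KO 1, had 21.4 to 44.4 CPM in WT and 14.6 to 21.6 CPM in KO. S100a8, a calcium-binding protein abundant in neutrophils, had 511, 296, 151 and 302 reads in WT and 931, 448 and 241 in KO, lowest in WT 3, where Mmp8 was highest of WT. In KO 1, where Mmp8 was highest, S100a8 was the largest part of the sum, at 30.7 CPM. Within KO, S100a8 had the order of Mmp8, which S100a9, with 34, 8 and 19 reads, did not.

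Mmp13 (chromosome 9, 7272514 to 7283331) was read rarely, with 0, 2, 3 and 14 reads in WT 1 to WT 4, against 38, 40 and 36 in KO 1 to KO 3. Scaled to library size this was at most 0.438 CPM in WT and 1.25, 1.55 and 1.32 CPM in KO. The KO libraries were nearly level with one another and above every WT library, and WT 4 was the highest of WT. The log2 fold change was 3.19 (SE 0.76) with all libraries and 4.65 (SE 0.61) without WT 4. Per kilobase of transcript its mean KO level was 0.515 CPM, against 65.0 CPM for Mmp8.

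Mmp12, the elastase (chromosome 9, 7344381 to 7369499), was the most variable member. It stood at 13.0, 15.7, 24.4 and 470 CPM in WT 1 to WT 4, and at 512, 79.1 and 1065 CPM in KO 1 to KO 3. The groups overlapped through WT 4 alone, which lay above KO 2, and within KO the lowest library was KO 2. The highest WT library was 36.0 times the lowest, and of the 8121 genes with at least 10 CPM only 6 had a larger ratio within WT. Within KO the ratio was 13.5, and again 6 genes had a larger one. The log2 fold change was 2.08 with an SE of 1.29, it was 4.96 (SE 0.84) without WT 4, 1.18 (SE 1.39) without KO 3 and 4.06 (SE 0.67) without both. Every KO library was higher than WT 1 to WT 3. The summed alveolar macrophage markers were likewise highest in KO 3 (79177 CPM), KO 1 (72564) and WT 4 (56354), then KO 2 (45662), against 20749 to 32692 in WT 1 to WT 3. Chil3, a secreted chitinase-like protein, gave most of the sum, with 72178 CPM in KO 3. Car4 had the same order of libraries, with 2596, 1462, 1364 and 980 CPM in KO 3, KO 1, WT 4 and KO 2. In WT 1 to WT 3 it had 461 to 925 CPM. Marco was also highest in KO 3, WT 4 and KO 1 (673, 664 and 642 CPM). Other markers of the list did not follow the sum: Pparg was lowest in KO 3 (365 CPM), and Siglecf and Ear1 were lower in every KO library than in WT. Interstitial macrophage markers were highest in KO 3 (14.2 CPM), WT 4 (10.5) and then KO 2, with none of the 6 at 0 throughout. The part of these shifts in the Mmp12 level was not tested.

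**Figure D2:**
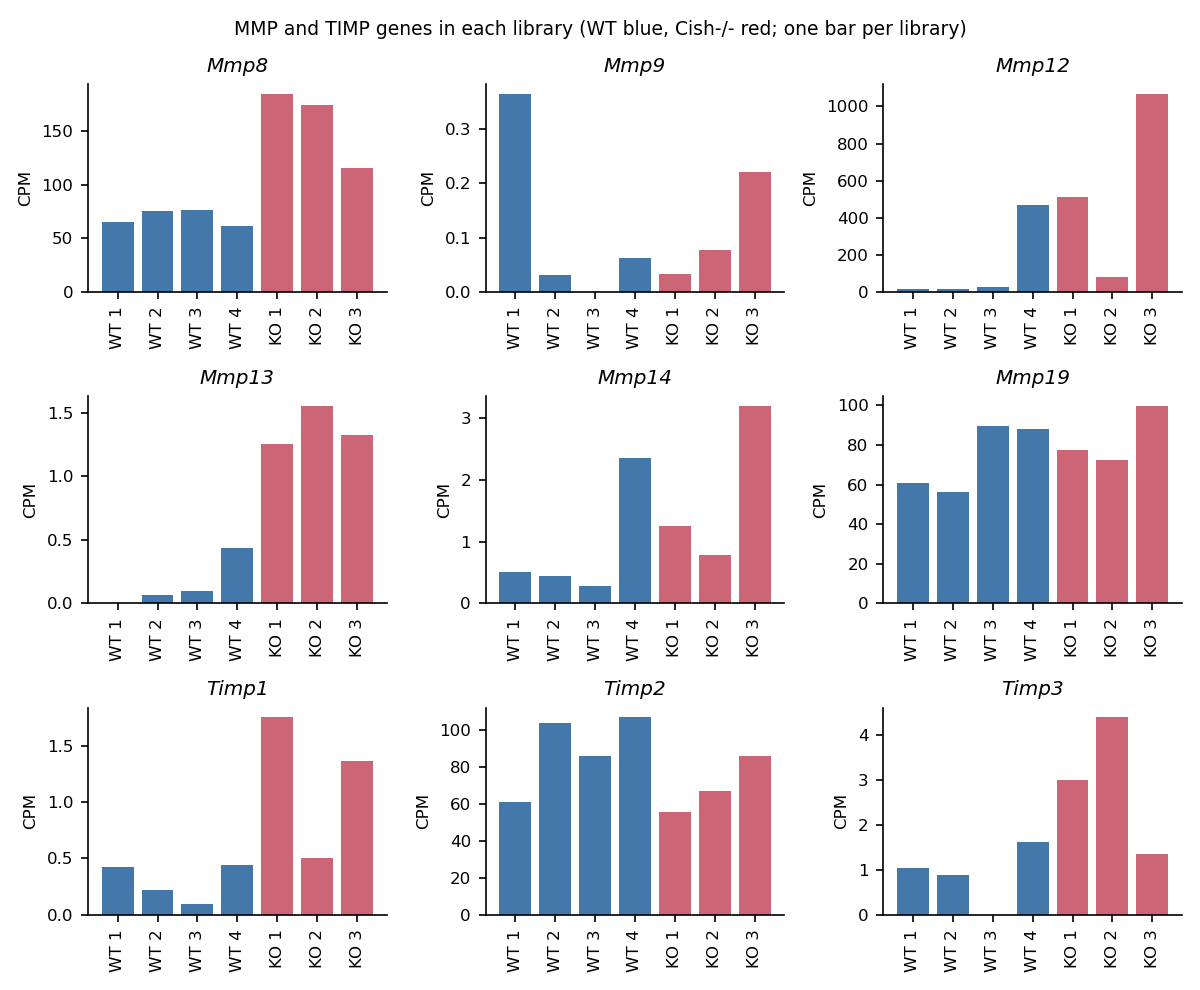
CPM of the 9 MMP and TIMP genes in each library (linear axes from 0, blue WT, red KO, 1 bar per library, each panel with its own scale). Mmp8 and Mmp13 are higher in all KO libraries, and Mmp12 and Mmp14 share high values in WT 4 and KO 3. Mmp12 is also high in KO 1, and the WT and KO bars of Mmp19 and Timp2 overlap.

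The gelatinases, which cut denatured collagen and basement membrane, were hardly read. Mmp9, another enzyme of neutrophil granules, had 13, 1, 0 and 2 reads in WT 1 to WT 4, against 1, 2 and 6 in KO 1 to KO 3, so the groups overlapped and no fold change is given. Its highest library, WT 1, also had the highest summed neutrophil markers (60.0 CPM) and the most S100a9 reads (55), but WT 2, with a sum of 58.6 CPM, had 1 Mmp9 read, and WT 4, with 42 S100a9 reads, had 2. Whether these reads came from neutrophils was not tested. Mmp2, the other gelatinase and no member of the set, had 0.375 to 0.671 CPM in WT and 0.515 to 0.855 CPM in KO, with a log2 fold change of 0.39 and an edgeR adjusted p of 0.619 (range 0.485 to 0.869).

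Mmp14 is the best known membrane-anchored MMP, an activator of Mmp2 on the cell surface. It (chromosome 14, 54431612 to 54445364) stood at 0.504, 0.438, 0.286 and 2.35 CPM in WT 1 to WT 4 and at 1.25, 0.777 and 3.20 CPM in KO 1 to KO 3. WT 4 and KO 3 were the highest libraries, so the groups overlapped as they did for Mmp12. The log2 fold change was 0.96 (SE 0.74), 2.07 (SE 0.56) without WT 4 and 0.19 (SE 0.80) without KO 3. Mmp25, a leukocyte MMP held by a lipid anchor and no member of the set, was at 0.406 to 1.17 CPM in WT and 0.231 to 1.10 CPM in KO libraries (log2 fold change -0.39, edgeR adjusted p 0.792, range 0.240 to 0.997). Its log2 fold change was -1.54 without KO 3 and 0.02 without WT 1, so its direction rests on single libraries.

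Mmp19 (chromosome 10, 128790910 to 128800824), a secreted enzyme that cuts basement membrane proteins, was among the 3 abundant MMPs and the least changed of them. It had 60.7, 56.1, 89.4 and 88.3 CPM in WT and 77.6, 72.5 and 99.8 CPM in KO, with every KO library but KO 3 inside the WT range. The log2 fold change was 0.18 (SE 0.19). Its exons share 789 bases, or 22.3% of its annotated exon length, with Tmem198b on the opposite strand, and the library kit does not mark strand, so some of these reads could belong to that gene.

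Among the inhibitors, Timp2 was by far the most read. It is a secreted inhibitor that also takes part in the activation of Mmp2 by Mmp14, and it lies on chromosome 11 (118301069 to 118355740). The WT libraries had 60.8, 104, 85.9 and 107 CPM and the KO libraries 55.6, 67.1 and 85.6 CPM. The groups overlapped, since WT 1 was lower than KO 2 and KO 3. With means of 89.2 CPM ± 21.1 (SD, n = 4) and 69.4 CPM ± 15.1 (SD, n = 3) it was the only tested member that was lower in KO, by a log2 fold change of -0.36 (SE 0.21). Timp2 supplied 97.7% to 99.9% of the TIMP reads in WT and 92.1% to 96.9% in KO.

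Timp1, a secreted inhibitor that is induced in inflammation and binds the proenzyme of Mmp9, was near the limit of detection. It lies on the X chromosome (20870166 to 20874735), inside the span of Syn1 but with no exon base in common. Syn1, on the opposite strand, had 10019 reads over all libraries. As the library kit does not mark strand, some Timp1 reads could belong to unspliced Syn1 RNA, which was not tested. Timp1 had 15, 7, 3 and 14 reads in WT and 53, 13 and 37 in KO. This was 0.420, 0.219, 0.0954 and 0.438 CPM against 1.75, 0.505 and 1.36 CPM. The KO libraries were all higher than WT, though KO 2 was close to WT 4. The log2 fold change was 2.02 (SE 0.56). The summed level of 4 endothelial markers, mostly Vwf, was also higher in every KO library. It was 11.6 to 15.4 CPM in WT and 30.6, 16.5 and 22.3 CPM in KO 1 to KO 3, the order of Timp1 within KO. Vwf (22.8, 10.4 and 19.2 CPM) and Cdh5 had this order, while Pecam1 and Cldn5 were lowest in KO 3. In KO 2, Vwf lay inside its WT range of 9.71 to 12.8 CPM. The part of such cells in the Timp1 reads was not tested.

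Timp3, the inhibitor that stays bound to the matrix and also blocks ADAM proteases, had 1.04, 0.875, 0 and 1.63 CPM in WT and 3.00, 4.39 and 1.36 CPM in KO. KO 3 lay below WT 4, so the groups overlapped, and the log2 fold change was 1.71 (SE 0.80), or 2.51 (SE 0.84) without WT 4 and KO 3. The gene (chromosome 10, 86300372 to 86349506) shares 1733 exon bases (21.3%) with Syn3 on the other strand, which had 67 reads over all libraries. The summed level of 6 fibroblast markers was highest in the libraries that were highest for Timp3: 12.0 CPM in KO 2, 5.81 in KO 1 and 6.51 in WT 4, against 1.02 to 2.25 in WT 1 to WT 3 and 1.88 in KO 3, and each of the 6 had reads in some library. Ager, a marker of the thin alveolar epithelial cells picked after its values were seen, was also highest in KO 2 (312 reads) and KO 1 (188), against 22 to 104 in WT and 32 in KO 3. Of the same epithelial list, Sftpc, Scgb1a1 and Sftpb were highest in KO 1, KO 2 and WT 4. Sftpc had 69.5, 63.1 and 47.2 CPM there, against 12.9 to 28.9 CPM in WT 1 to WT 3 and 19.2 CPM in KO 3. Epcam was highest in WT 2 and Cdh1 in KO 3. The 6 epithelial markers summed to 188 to 374 CPM in WT and 158 to 191 CPM in KO. Epcam gave 135 to 302 CPM of this in WT and 9.24 to 92.6 CPM in KO. The part of such cells in the Timp3 reads was not tested, and in bulk RNA fewer cells of a type and less RNA per cell cannot be told apart.

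By the counts, 7 of the 8 tested members had a log2 fold change above 0, against 50.5% of all tested genes, and their median was 1.45 against 0.00 over all tested genes. Groups did not overlap, with KO higher, for 3 of the 8 (Mmp8, Mmp13 and Timp1), where 7.23% of all tested genes did so. For 0 of the 8 KO was lower without overlap, against 8.72%, and in either direction the share of all genes was 15.9%. By the edgeR quasi-likelihood test with Benjamini-Hochberg adjustment over all tested genes, 1 of the 8 passed, Mmp8. That call was lost with library sizes only and when WT 1, WT 2, WT 3, KO 1 or KO 2 was left out. Among all genes, 0.047% passed with KO higher, 0.0392% with KO lower and 0.0862% in all. DESeq2 called 3 of the 8 (Mmp8, Mmp13 and Timp1) and 6.1% of all genes. Because these genes were picked from this contrast, the counts describe the set and say nothing about it beyond that.

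**Figure D3:**
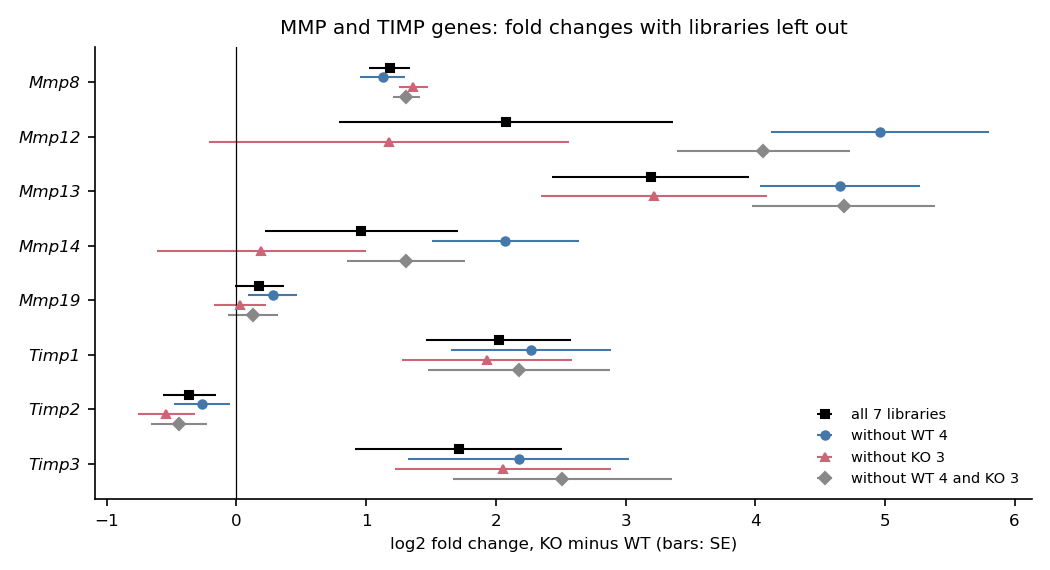
Log2 fold change (KO minus WT) of the 8 tested members, with SE bars, from the fit on all 7 libraries and from fits without WT 4, without KO 3 and without both. Mmp8 stays between 1.13 and 1.37 in these fits, while Mmp12 moves from 1.18 to 4.96 and Mmp14 from 0.19 to 2.07.

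Levels of different genes were compared per kilobase of the principal annotated transcript, as CPM per kilobase. The order of the members by their median over the 7 libraries was Mmp8 (31.6), Timp2 (23.1), Mmp19 (22.8), Mmp12 (21.9), Timp1 (0.496), Mmp14 (0.299), Timp3 (0.288), Mmp13 (0.164) and Mmp9 (0.0197). This order pools both groups, and the place of Mmp12 depends on the libraries: by group means it was first in WT (36.2, against 28.7 for Mmp8) and in KO (153, against 65.0), while in WT 1 to WT 3, at 3.61 to 6.77, it was the lowest of these 4. Of the neighbours in the pooled order, only Mmp12 and Timp1 had ranges over the libraries that did not overlap, so the set fell into 4 abundant and 5 scarce transcripts. With the union of all annotated exons as the length, the median was 10.9 for Mmp12, 0.130 for Mmp14 and 0.167 for Timp3, which put Mmp14 below Mmp13.

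The make-up of the MMP transcripts differed between libraries mainly through Mmp12. Over all 23 MMP genes in the table, Mmp8, Mmp12 and Mmp19 together held 97.6% to 99.4% of the CPM in every library. In WT 1 to WT 3, Mmp12 was 9.14% to 12.6% of the total, and Mmp8 (39.7% to 50.3%) and Mmp19 (37.6% to 46.3%) made up nearly all the rest. In WT 4, KO 1 and KO 3, Mmp12 made up 75.2%, 65.6% and 82.7%. KO 2 lay between, with 23.9% Mmp12 and 52.6% Mmp8.

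Set against the inhibitors, the summed MMP level per kilobase over that of the 4 TIMP genes was 2.90, 1.85, 2.82 and 6.20 in the WT libraries in order. The same ratio was 13.8, 5.98 and 15.1 for KO 1, KO 2 and KO 3. WT 4 and KO 2 were level, so the groups overlapped. Without Mmp12 the summed MMP level was 45.9 to 58.8 CPM per kilobase in WT and 79.7 to 101 in KO, without overlap, and Mmp8 and Mmp19 made up nearly all of it. The TIMP sum overlapped, at 17.1 to 29.6 in WT and 17.6 to 24.9 in KO. These ratios compare transcripts and not proteins, and they rest on the same contrast that picked the members.

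**Figure D4:**
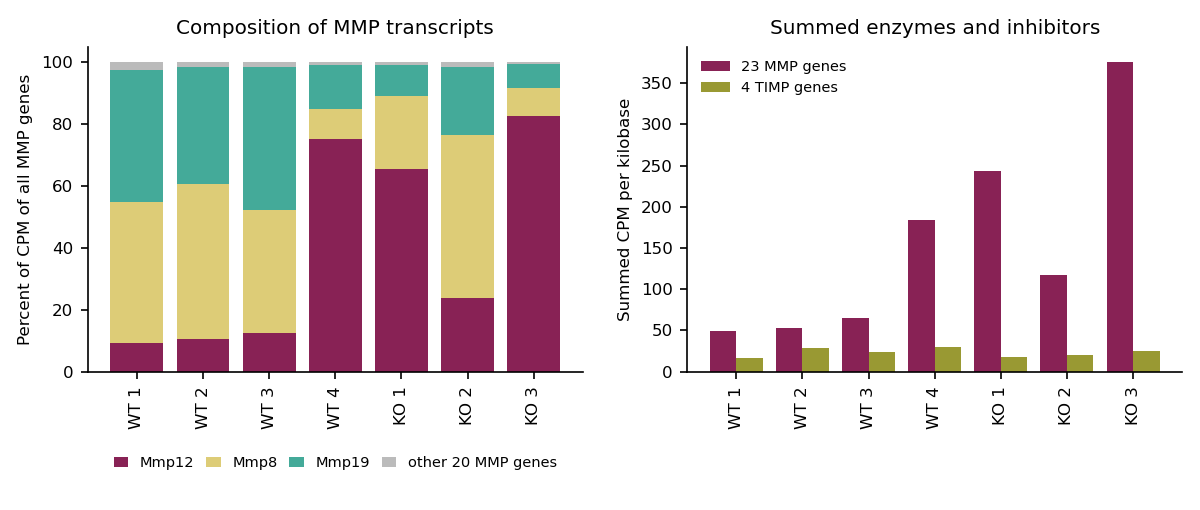
Left, share of the summed CPM of all 23 MMP genes that came from Mmp12, Mmp8, Mmp19 and the other 20 genes in each library; right, summed CPM per kilobase of the 23 MMP and the 4 TIMP genes in each library. Mmp12 takes 75.2%, 65.6% and 82.7% in WT 4, KO 1 and KO 3 and at most 23.9% elsewhere, while the TIMP sum stays between 17.1 and 29.6.

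The genes whose levels followed those of Mmp12 most closely were found by the mean absolute difference of log2 CPM over the 7 libraries, each gene taken relative to its own mean. They were AA467197 (0.45), Rnase2a (0.53), an eosinophil-associated ribonuclease, Inhba (0.69), a subunit of activin, Ccl17 (0.93), a chemokine for T cells, and Ptgir (0.99), the prostacyclin receptor. Each was several fold higher in WT 4, KO 1 and KO 3 than in WT 1 to WT 3, and lower in KO 2 than in the other KO libraries. Ccl17, for example, stood at 1.20, 0.313, 0.764 and 58.4 CPM in WT 1 to WT 4 and at 111, 6.84 and 230 CPM in KO 1 to KO 3. Rnase2a stood at 0.313 to 0.445 CPM in WT 1 to WT 3 and at 32.8 in WT 4, and at 1.67 (KO 2) to 50.7 CPM (KO 3) in KO. The 4 eosinophil markers summed to 0.0938 to 0.688 CPM in WT, highest in WT 4, and 0.231 to 0.515 CPM in KO, and their part in the Rnase2a reads was not tested. Rnase2a may share reads with near-identical ribonuclease genes.

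The genes closest to Mmp8 by the same measure were the nuclear RNA Neat1 (0.18), Spag11b (0.18), a gene of the beta-defensin type, the scaffold gene Mpp7 (0.20), the dystrobrevin Dtnb (0.20) and Aff1 (0.20), a component of transcription elongation complexes. Spag11b stood at 33.7 to 40.8 CPM in WT and at 133, 77.7 and 52.8 CPM in KO 1 to KO 3. It shared with Mmp8 a narrow WT range and a lowest KO value in KO 3. Neat1 had 7.97 to 13.9 CPM in WT and 29.4, 22.3 and 19.6 CPM in KO.

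**Figure D5:**
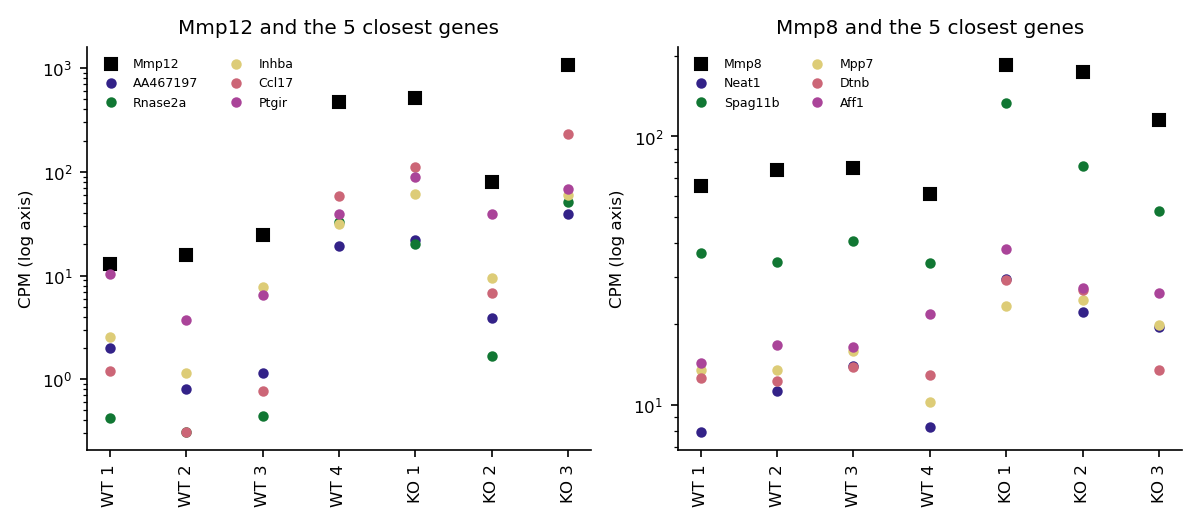
CPM (log axis) in each library of Mmp12 (left) and Mmp8 (right), as black squares, with the 5 genes closest to each in colour. The Mmp12 set is high in WT 4, KO 1 and KO 3, with WT 4 above KO 2 for Mmp12, AA467197, Rnase2a, Inhba and Ccl17, while the Mmp8 set is lower in the WT libraries than in KO, except for Dtnb in KO 3 (13.5 CPM).

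The rest of the family was nearly silent. Of the 18 other MMP and TIMP genes, 3 passed the filter on low counts, Mmp2, Mmp10 and Mmp25, and 0 were called by edgeR or limma voom. DESeq2 called 0 of the 2 for which it gave an adjusted p, Mmp10 being left without one. Of these 3, 1 had an unadjusted edgeR p below 0.05, as did 18% of all tested genes. The 1 of the 3 was Mmp10, a stromelysin that activates other MMPs and the neighbour of Mmp8 in the cluster. It had 0, 5, 4 and 5 reads in WT 1 to WT 4, against 24, 11 and 9 in KO 1 to KO 3, so all 3 KO libraries were higher (log2 fold change 2.23, SE 0.69, edgeR adjusted p 0.155, range over the alternatives 0.112 to 0.553). Mmp3, the other stromelysin of the cluster, had 20 and 13 reads in KO 1 and KO 2, 0 in KO 3 and at most 2 in WT, and was not tested.

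Genes that activate, bind or clear MMPs were as often higher as lower. Of 22 listed, 14 were tested, with 7 higher and 7 lower, a median log2 fold change of -0.01, and 0 called by edgeR, DESeq2 or voom. By edgeR, 3 higher and 2 lower had an unadjusted p below 0.05, against 9.15% and 8.85% of all genes. Furin, the protease that removes the propeptide of Mmp14 inside the cell, was at 230 CPM ± 30.4 (SD, n = 4) among WT libraries, against 209 CPM ± 37.4 (SD, n = 3) among KO. Plat, which turns plasminogen into plasmin, had 0.436 and 1.09 CPM (log2 fold change 1.32, edgeR adjusted p 0.164, range over the alternatives 0.0489, without WT 4 and KO 3, to 0.491). Anxa2, a surface anchor of that system, had 3024 and 2547 CPM without overlap between groups (log2 fold change -0.25, edgeR adjusted p 0.208, range 0.107 to 0.607). The receptor gene Plaur, which holds the plasminogen activator urokinase at the cell surface, was abundant and near level, at 1325 CPM ± 138 (SD, n = 4) and 1426 CPM ± 185 (SD, n = 3).

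ADAM and ADAMTS proteases, relatives of the MMPs that shed membrane proteins or cut proteoglycans, also went both ways: of 10 tested among 18 listed, 5 were higher and 5 lower, with a median of 0.00. edgeR and voom called 0, with 2 higher at an unadjusted edgeR p below 0.05, against 9.15% of all genes. DESeq2 called 1, Adamts1, against 6.1% of all genes in either direction. Adamts1, a proteoglycan-cutting enzyme, had 0.196, 1.44, 0.509 and 0.626 CPM in WT and 2.87, 3.96 and 1.65 CPM in KO, all above WT. Its log2 fold change was 2.03 (SE 0.56), and the adjusted p was 0.126 in edgeR, with alternatives from 0.00739 (DESeq2) to 0.441. Without WT 2, the highest of WT, the log2 fold change was 2.67. Adamdec1 had 0.194 and 0.856 CPM (log2 fold change 2.14, edgeR adjusted p 0.184, range 0.0891 to 0.662), and without KO 1, which held 50 of its reads, the log2 fold change was 1.23. The main sheddases Adam10 and Adam17 were at 62.9 and 175 CPM in WT and 53.1 and 179 CPM in KO.

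Of 21 genes for matrix proteins that MMPs cut, 14 were tested, 12 of them higher and 2 lower, and the median log2 fold change was 0.91. Over all tested genes, 50.5% were higher. The tools edgeR, DESeq2 and voom called 0 of the 14. At an unadjusted edgeR p below 0.05, against 18% of all genes, there was 1. That gene, Spp1, encodes osteopontin and averaged 1898 CPM ± 287 (SD, n = 4) among WT libraries against 2660 CPM ± 607 (SD, n = 3) among KO libraries (log2 fold change 0.49, edgeR adjusted p 0.184, range 0.0622 to 0.491). Thbs1, the matricellular thrombospondin, had 0.967 and 1.74 CPM (0.84, edgeR adjusted p 0.316, range 0.110 to 0.576). The collagens and elastin in this list had means of at most 2.01 CPM in either group, and Col1a1, Col1a2, Col3a1 and Dcn are also among the fibroblast markers, whose sum was 1.02 to 6.51 CPM in WT and 1.88 to 12.0 CPM in KO. Their part in the direction of this list was not tested. Fn1, which macrophages make in quantity, was level at 173 CPM ± 57.9 (SD, n = 4) and 175 CPM ± 136 (SD, n = 3).

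All 22 transcription factors and cytokines listed as drivers of MMP genes were tested, 15 higher and 7 lower, with a median log2 fold change of 0.14. edgeR and voom called 0 of them, with 4 higher and 1 lower at an unadjusted edgeR p below 0.05, and DESeq2 called 2, Ets1 and Il1b, both higher. Over all genes, 9.15% were higher and 8.85% lower at that p. DESeq2 called 6.1% of all genes in either direction, and 50.5% had a log2 fold change above 0. Ets1, a transcription factor of the ETS family, had 0.986 to 2.50 CPM in WT, and the KO libraries all exceeded it with 3.22 to 6.04 CPM. The edgeR adjusted p of its log2 fold change of 1.16 (SE 0.34) was 0.141 (range 0.0217 with DESeq2 to 0.523). Il1b, an inflammatory cytokine, had 77.8 to 184 CPM in WT and 209 to 240 CPM in KO. The cytokine Il1a had 226 CPM ± 27.6 (SD, n = 4) and 406 CPM ± 190 (SD, n = 3), and KO 3 lay at 204 CPM, level with the lowest WT library (log2 fold change 0.85, edgeR adjusted p 0.178, range 0.0128 to 0.515). It passed edgeR without KO 3, with an adjusted p of 0.0128. The AP-1 genes Fos, at 982 CPM ± 348 and 974 CPM ± 436, and Junb, at 1066 CPM ± 227 and 1225 CPM ± 161, differed by less than their SD between libraries. Jun, at 354 CPM ± 153 and 530 CPM ± 438, and Jund, at 783 CPM ± 176 and 958 CPM ± 396, were higher on average in KO. The groups overlapped for every Jun and Fos gene of the list, and Fos and Fosl1 were slightly lower on average in KO.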

How the data were processed

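RNA of sorted alveolar macrophages was sequenced in 7 libraries. Per the labels' protocols, cells were sorted into TRIzol LS and libraries were made with Nextera XT, which does not mark strand. The authors deposited 1 table of unnormalized counts by gene symbol, whose name points to rsubread, and the submitters' processing notes name mm10 and DESeq2. Annotation, strand setting and treatment of multi-mapping reads were not stated in the labels or the file, and close paralogs may share reads. Of 27179 rows, 1036 without a symbol (0.376% to 0.424% of counts) were left out, and 26 symbols that had become dates were kept under the date.

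Genes were kept by filterByExpr (12759), scaled by TMM and tested in edgeR 4.0.16 (R 4.3.3) by a quasi-likelihood F test on genotype with 5 residual degrees of freedom. A gene was called at 0.05 after Benjamini-Hochberg adjustment over all genes kept. SEs were taken as the log2 fold change over the square root of F. The code was tested on simulated counts. CPM use the TMM factors, and log2 CPM a prior count of 2. Lengths are those of APPRIS principal transcripts of GENCODE M21, chosen after values were seen, and promoters those of RefSeq GRCm38.p6, with 7 of the 9 members matched. The motif search first covered the whole promoter windows and a TATA motif. It was then narrowed to the bases before the start and to AP-1 and STAT letters, also after values were seen. Alternatives used DESeq2 1.42.0 and limma 3.58.1. Named were the 9 members, Cish, every other tested MMP or TIMP gene, called genes of each list or else the 2 with the smallest p, and the 5 genes of at least 10 CPM closest to Mmp8 and Mmp12. Further genes, given as values or by their order (Furin, Plaur, Adam10, Adam17, Fn1, Fos, Fosl1, Jun, Junb, Jund, Il1b, Mmp3, S100a8, S100a9, Csf3r, Chil3, Siglecf, Ear1, Mrc1, Car4, Marco, Pparg, Ager, Sftpc, Scgb1a1, Sftpb, Epcam, Cdh1, Vwf, Cdh5, Pecam1 and Cldn5), were chosen after their values were seen. The members and lists were chosen with earlier results of these data known.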

Additional observations from a re-analysis of the deposited data

Results flagged for a closer look

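Among 31 named genes, 5 had a WT library far from the other 3 by Dixon's ratio, the gap to the nearest library over the range of the group. Chance flags about 1 in 20 groups. In all 5 the library was WT 4, on the high side. The ratio was 0.975 for Mmp12 and 0.895 for Mmp14, and 0.937 for AA467197, 0.996 for Rnase2a and 0.985 for Ccl17, which were named for their likeness to Mmp12 and so are not further evidence of the same pattern. Of all 12759 tested genes, WT 4 was such a high library for 1.58%, against 0.862%, 0.839% and 0.666% for WT 1, WT 2 and WT 3. The KO group, with 3 libraries, was not checked in this way.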

How the results depend on the processing

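The number of genes called by edgeR, 11, was kept within 1.5 times by RLE factors (11) and by library sizes only (12, with 5 higher and 7 lower against 6 and 5; the median log2 fold change of all genes was then -0.05 against 0.00). It was 775 with DESeq2, 397 without a filter, 21 when 5 CPM or more was required in 3 or more libraries and 46 with limma voom and sample quality weights. With 1 library left out at a time it ranged from 7 to 284, the highest being 284 without WT 4 and 217 without KO 3, and the lowest 7 without WT 1. Without WT 4 and KO 3 together, an alternative chosen with the data known, it was 590. With the replicate number as a block it was 430. The labels do not say that numbers pair libraries. The deviations of same-numbered libraries from their group means correlated at -0.01, 0.14 and -0.02, against -0.16 to 0.16 for differently numbered ones. These values cannot settle whether the libraries are paired, since deviations within so small a group constrain one another. WT 4, without a partner, takes no part in the comparison of the fit with the block. The 8 tested members kept the sign of their log2 fold change in every alternative that could be fitted (14 or 15 each). Of the members, Mmp12 moved by more than 1 SD between libraries in 2 alternatives and Mmp13 in 3. Timp3 lay between 1.30 without KO 2 and 3.25 with limma voom. Depth limits Mmp9, Mmp13 and Timp1, whose WT libraries held 15 reads or fewer.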
